A study of Rattus norvegicus with 12 samples.

Results

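The p53 target and growth arrest genes examined here were 10 listed genes: the 3 Gadd45 genes (Gadd45a, Gadd45b, Gadd45g), Cdkn1a, Mdm2, Ccng1, Bax, Btg2, Sesn1 and Trp53inp1. Each was represented by the probe set that carried its symbol alone and had the highest mean over 12 arrays. Of the 10 genes, 9 were measured among 14506 named genes. Trp53inp1 was found under its rat symbol, Tp53inp1, and Btg2 had no named probe set and was not analysed here.

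The samples were primary cultures of inner medullary collecting duct (IMCD) cells, the cells of the last kidney segment that adjusts urine concentration, from male Sprague-Dawley (SD) rats aged 7 weeks. All cultures spent 4 days in medium of 640 mOsm/kg. The groups were then cells moved to 300 mOsm/kg for 24 h, cells kept at 640 for the same 24 h, cells moved to 300 for 48 h and cells kept at 640 for the same 48 h, with 3 samples in each group and total RNA of each on 1 Affymetrix Rat Gene 1.0 ST array. The titles gave the groups; the short codes in some sample descriptions name other osmolalities. Nothing in the labels tells whether a group's 3 samples were different animals or different cultures, and the p-values therefore reflect a sample-to-sample spread that may be technical. No group was taken before the step, and no sample was grown at 300 throughout.

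p53 is a transcription factor that is stabilised by DNA damage and other stresses and switches on genes that halt the cell cycle, repair DNA or start apoptosis. Cdkn1a (p21) inhibits cyclin-dependent kinases, Mdm2 is the ubiquitin ligase that degrades p53 in a feedback loop, and the Gadd45 proteins bind p21, PCNA and the kinase Map3k4 and take part in growth arrest, repair and stress kinase signalling. Gadd45 genes also answer to signals that do not pass through p53. In mouse inner medullary collecting duct cells an acute rise in NaCl is known to activate p53 and induce Gadd45 genes; the step in the present samples ran the other way, to a lower osmolality after adaptation to a high one.

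Promoter sequences are shown for the Gadd45 family, because Gadd45g passed the test described below and Gadd45a and Gadd45b did not, and for Cdkn1a and Ccng1, because p53 is known to act on both. The windows run from 250 bases before to 50 bases after the transcript start that RefSeq's table for rat build GRCr8 gives, 5′ to 3′ on the gene's strand, and 7 of the 9 measured genes had one. Capitals mark every match on either strand to 3 patterns: a p53 half-site, the sequence CCAAT, and the sequence TATAAA. A match to the tonicity-responsive enhancer, the site bound by the osmotic regulator Nfat5, would also have been capitalised. None of these patterns overlapped another in the windows shown. The windows are Gadd45a at chr4:97486750-97487049 (minus strand), Gadd45b at chr7:9430669-9430968 (minus), Gadd45g at chr17:13530302-13530601 (minus), Cdkn1a at chr20:7150682-7150981 (plus) and Ccng1 at chr10:25684827-25685126 (minus).
Gadd45a: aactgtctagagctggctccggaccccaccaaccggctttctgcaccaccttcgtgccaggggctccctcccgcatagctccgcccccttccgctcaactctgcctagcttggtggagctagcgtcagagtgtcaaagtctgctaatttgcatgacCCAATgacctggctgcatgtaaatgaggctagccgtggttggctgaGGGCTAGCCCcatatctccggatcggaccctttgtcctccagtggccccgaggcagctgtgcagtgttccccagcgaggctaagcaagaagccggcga
Gadd45b: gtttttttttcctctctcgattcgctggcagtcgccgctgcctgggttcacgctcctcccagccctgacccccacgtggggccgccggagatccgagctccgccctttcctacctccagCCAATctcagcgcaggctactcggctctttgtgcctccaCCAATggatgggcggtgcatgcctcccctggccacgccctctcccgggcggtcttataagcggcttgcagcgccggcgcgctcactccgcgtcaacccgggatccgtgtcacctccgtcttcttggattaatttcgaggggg
Gadd45g: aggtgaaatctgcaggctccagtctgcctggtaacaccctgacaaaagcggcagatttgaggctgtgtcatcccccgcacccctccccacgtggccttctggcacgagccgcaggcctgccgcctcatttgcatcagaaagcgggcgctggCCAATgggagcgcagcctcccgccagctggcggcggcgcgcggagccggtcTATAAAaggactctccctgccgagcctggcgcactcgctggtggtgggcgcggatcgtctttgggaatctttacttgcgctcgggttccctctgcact
Cdkn1a: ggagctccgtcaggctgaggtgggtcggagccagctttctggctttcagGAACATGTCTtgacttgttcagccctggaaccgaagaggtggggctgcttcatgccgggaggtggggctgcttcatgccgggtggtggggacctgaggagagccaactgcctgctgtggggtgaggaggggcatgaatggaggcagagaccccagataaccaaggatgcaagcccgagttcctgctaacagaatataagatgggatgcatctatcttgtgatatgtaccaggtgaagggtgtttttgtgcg
Ccng1: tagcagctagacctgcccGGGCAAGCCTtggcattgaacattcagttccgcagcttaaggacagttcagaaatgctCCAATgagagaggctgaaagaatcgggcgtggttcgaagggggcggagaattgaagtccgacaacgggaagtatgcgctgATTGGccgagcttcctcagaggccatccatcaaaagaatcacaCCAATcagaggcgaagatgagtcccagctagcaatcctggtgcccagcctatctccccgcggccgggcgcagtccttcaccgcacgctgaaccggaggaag

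The Gadd45g window held 1 CCAAT, from base -99 to base -95 relative to the start, and 1 TATAAA, from base -48 to base -43, and no p53 half-site. The Gadd45a window held the half-site GGGCTAGCCC from base -48 to base -39, and the Gadd45b window held CCAAT at 2 places and no half-site. Cdkn1a had the half-site GAACATGTCT from base -201 to base -192, and Ccng1 had GGGCAAGCCT from base -232 to base -223. With Sesn1, 4 of the 7 windows held a half-site, whereas 7.98% of all 33469 rat windows of this length did. The genes were listed as p53 targets or Gadd45 genes, so these shares describe the list and test nothing about p53. The tonicity-responsive enhancer matched 0 of the 7 windows and 5.98% of all windows, CCAAT was found in 37.5% of all windows and TATAAA in 14.2%. The absence of a match says only that the letters are not in this window, and known p53 sites of some of these genes lie further upstream or inside the gene. For Gadd45b, Cdkn1a, Mdm2 and Sesn1 the table's transcript start was not the outer end of the gene's annotated span, and in Sesn1 it lay well inside the gene.

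Levels are log2 values of the deposited table, which are not comparable between genes. The medians of the 12 arrays over the named genes ranged from 6.81 to 7.58: at 24 h they were 6.89, 7.58 and 7.46 at 300 and 7.43, 7.57 and 6.90 at 640, and all 6 arrays at 48 h lay between 6.81 and 6.97. Each array was therefore centred on its own median, and results on the deposited scale are given wherever the call differs. Deviations from the group means, over all genes, were shared across osmolalities: replicate 1 at 300 went with replicate 3 at 640 (r = 0.83 at 24 h and 0.78 at 48 h), replicate 2 with replicate 2 (0.84 and 0.80), and replicate 3 at 300 with replicate 1 at 640 (0.58 and 0.63). These are descriptions across genes of 1 sample pair each, and the labels give no reason for them. Epithelial markers were high, as a description of rank within the arrays: Krt8, Krt18, Epcam and Cdh1 lay at the 99.7, 99.9, 99.5 and 99.1 percentile of named genes (median over arrays) and the principal cell regulator Gata3 at the 98.1, whereas the 5 intercalated cell markers lay at the 13.3 to 32.9 percentile. Other principal cell markers ranked lower than Gata3: Avpr2 lay at the 55.8 percentile, Aqp2 at the 72.3, Aqp3 at the 74.3 and Aqp4 at the 74.9. Slc14a2 lay at the 77.7, Hoxb7 at the 80.8, Krt19 at the 92.6 and Fxyd4 at the 93.4. The epithelial sodium channel genes Scnn1a, Scnn1b and Scnn1g were low, at the 37.8, 30.1 and 33.4 percentile.

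The move to 300 mOsm/kg was accompanied by a higher level of 1 of the 9 genes, Gadd45g. The limma test over all genes, with 1 mean per group and Benjamini-Hochberg adjustment at a threshold of 0.05, called Gadd45g higher at 300 than at 640 after 48 h, and again in the mean of both times. It called 0 of the 9 genes at 24 h. At an unadjusted p under 0.05 were 1 of the 9 at 24 h, 2 at 48 h and 2 in the mean of both times, where 5.45%, 8.18% and 11.4% of all genes were. The share of all 14506 genes called was 0.655% at 24 h (95 genes), 1.85% at 48 h (269 genes; 0.524% higher at 300) and 3.43% in the mean of both times (497 genes; 1.33% higher at 300). With the values as deposited, Gadd45g was again the 1 gene of the 9 called at 48 h, where 0.717% of all genes were, and in the mean of both times, where 1.28% were. Estimates for the 9 genes were above 0 for 8 and below 0 for 1 (Sesn1) at each time; above 0 were 40.9% of all genes at 24 h and 54.6% at 48 h. The median change of the 9 was 0.10 at 24 h, 0.30 at 48 h and 0.19 in the mean of both, and the median over all genes was -0.04, 0.02 and -0.01.

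**Figure D1:**
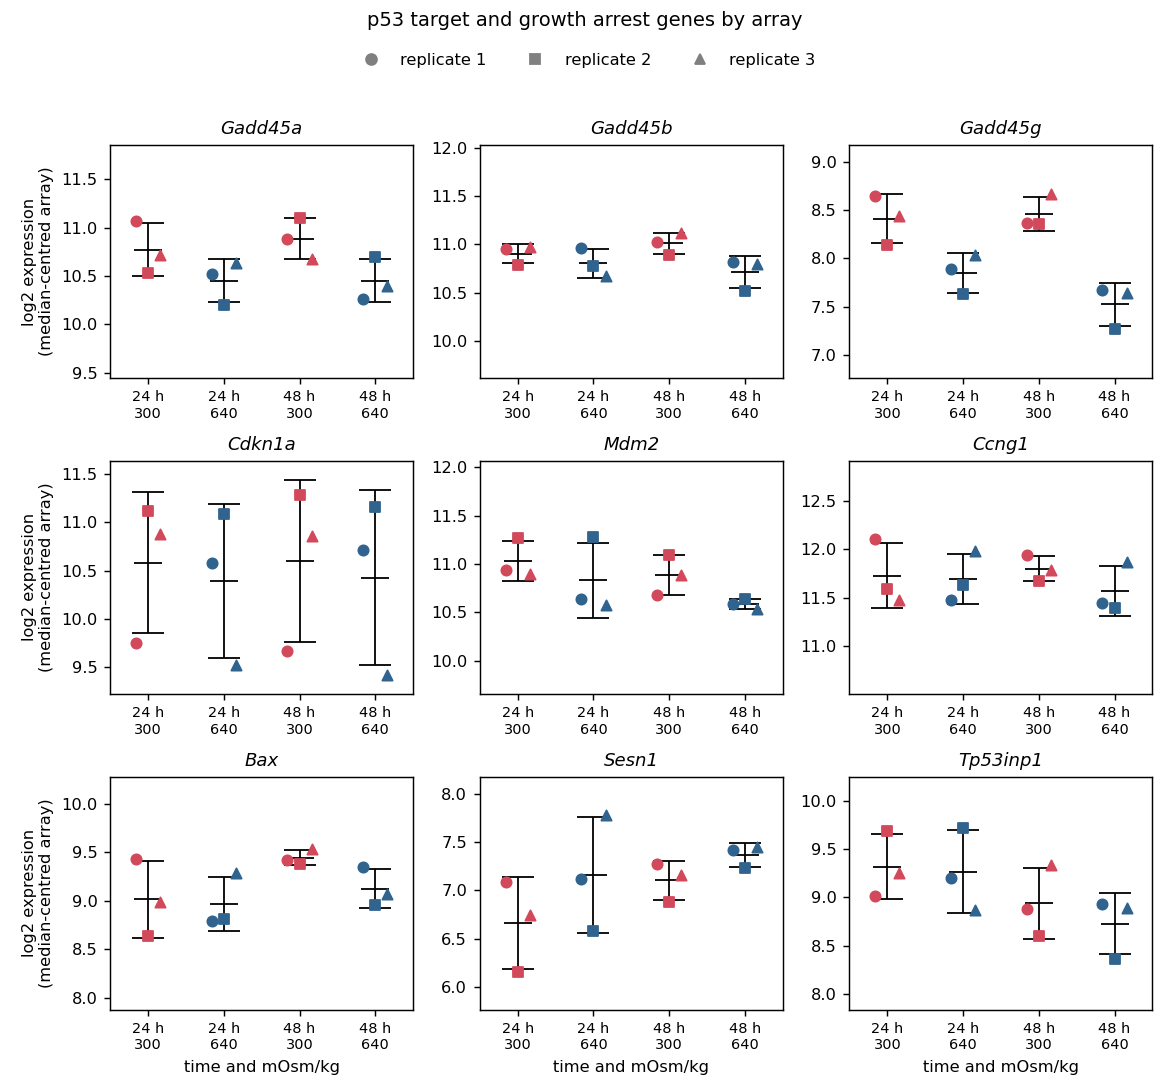
Centred log2 level of each measured gene on each array, in 4 groups of 3 arrays (time in h over osmolality in mOsm/kg), with lines at the group mean and at 1 SD to either side, and a symbol for each replicate number. Gadd45g lies between 8.14 and 8.66 in all 6 arrays at 300 and between 7.27 and 8.03 in all 6 at 640, while Cdkn1a spreads over 1.86 log2 units and its 4 groups overlap.

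Gadd45g, a family member induced by several cytokines and stresses, had log2 levels of 8.65, 8.14 and 8.44 at 300 and of 7.89, 7.63 and 8.03 at 640 after 24 h. Its levels after 48 h were 8.37, 8.35 and 8.66 at 300 and 7.67, 7.27 and 7.64 at 640. At either time every array at 300 lay above every array at 640. Group means after 48 h were 8.46 ± 0.18 at 300 and 7.53 ± 0.22 at 640 (SD, n = 3 each), a change of 0.93 ± 0.19 (SE), or 1.91-fold, with a limma adjusted p of 0.0145 and a 95% interval of 0.53 to 1.33. As deposited, the change was 0.93 with a limma adjusted p of 0.0483. After 24 h the means were 8.41 ± 0.25 at 300 and 7.85 ± 0.20 at 640 (SD, n = 3 each), and the change of 0.56 ± 0.19, 1.47-fold, did not pass (limma adjusted p = 0.414). Averaged over both times, Gadd45g was 0.74 ± 0.13 higher at 300, 1.68-fold, with a limma adjusted p of 0.00373 (0.0135 on the deposited scale).

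The call at 48 h rested on few arrays. It was lost without replicate 3 at 300 (change 0.83, limma adjusted p = 0.103) and without replicate 2 at 640 (0.81, limma adjusted p = 0.0850), and held when any other array was left out. The call in the mean of both times held whichever 1 of the 12 arrays was left out, with changes from 0.68 to 0.81 and limma adjusted p from 0.00258 to 0.0160. The change at 48 h exceeded that at 24 h by 0.38 ± 0.26, which did not pass the test of the difference (limma adjusted p = 1.000). Of all genes, 4 were called for that difference (0.0276%), and of the 9 genes 0 were, with 0 at an unadjusted p under 0.05 (0.903% of all genes).

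Gadd45a, the classical p53-induced family member, had log2 levels of 11.07, 10.53 and 10.72 at 300 and 10.52, 10.20 and 10.63 at 640 after 24 h. The levels after 48 h were 10.88, 11.10 and 10.67 at 300 and 10.26, 10.69 and 10.40 at 640. The groups overlapped at both times, at 24 h by replicate 2 at 300 and at 48 h by replicate 3 at 300, each below the highest array at 640. The change was 0.32 ± 0.19 at 24 h (limma adjusted p = 1.000) and 0.43 ± 0.19 at 48 h (limma adjusted p = 0.554, unadjusted 0.0418). In the mean of both times it was 0.38 ± 0.14, with an unadjusted p of 0.0151 and a limma adjusted p of 0.212, so that Gadd45a did not pass.

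Gadd45b, which is known to be induced by NF-kB and TGF-beta signalling, had 10.95, 10.79 and 10.97 at 300 and 10.97, 10.78 and 10.67 at 640 after 24 h, which overlap. After 48 h it had 11.03, 10.89 and 11.12 at 300 and 10.82, 10.52 and 10.79 at 640, and every array at 300 was above every array at 640. The change of 0.30 ± 0.16 at 48 h did not pass (limma adjusted p = 0.750), and neither did 0.10 ± 0.16 at 24 h. Its spread within groups was small, with a pooled SD of 0.133 against a median of 0.250 over all genes. The 95% interval of its change at 48 h, -0.04 to 0.63, lies below the estimate of 0.93 for Gadd45g but overlaps the Gadd45g interval of 0.53 to 1.33. The difference between the 2 genes was not tested.

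**Figure D2:**
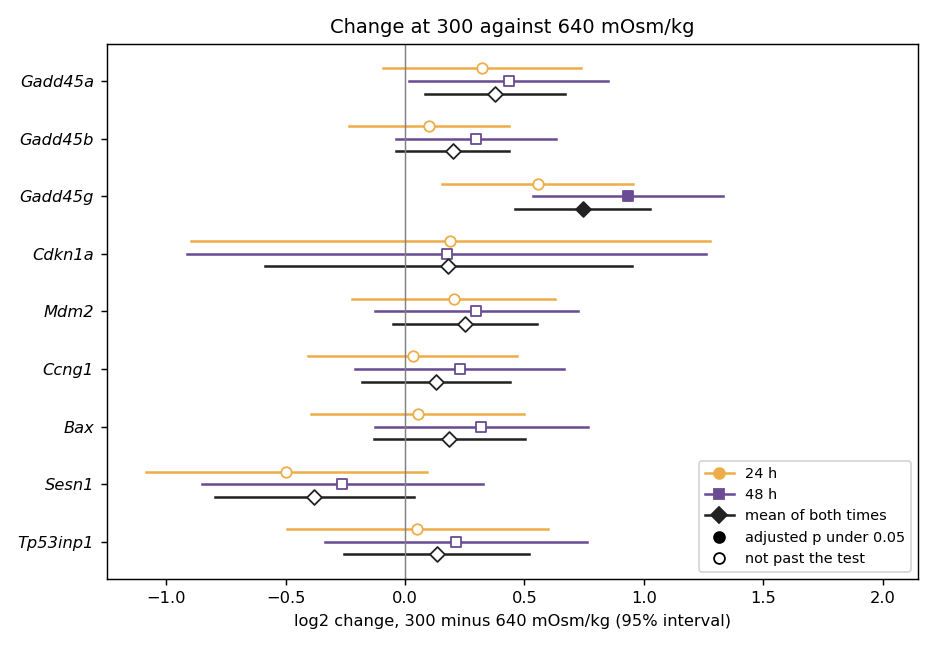
Change in log2 level, 300 minus 640, of each measured gene at 24 h, at 48 h and in the mean of both times, with 95% intervals from the limma fit and filled symbols where the adjusted p passed. Filled are Gadd45g at 48 h and in the mean of both times alone. The interval of Gadd45g at 48 h, 0.53 to 1.33, lies clear of 0, and those of Cdkn1a are the widest at either time, from -0.91 to 1.26 at 48 h.

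Cdkn1a, the p21 cell cycle inhibitor, showed the largest spread between arrays of the 9 genes and no call for osmolality. Its log2 levels were 9.75, 11.11 and 10.88 at 300 and 10.57, 11.08 and 9.52 at 640 after 24 h. After 48 h they were 9.67, 11.28 and 10.86 at 300 and 10.71, 11.16 and 9.42 at 640. Within each group the levels thus spanned more than 1 log2 unit, and the 4 groups held nearly the same set of values. The pooled SD within groups was 0.818, the 99.9 percentile of all 14506 genes, while the 4 group means lay within 0.21 of each other. The change was 0.19 ± 0.51 at 24 h (limma adjusted p = 1.000) and 0.17 ± 0.51 at 48 h (limma adjusted p = 0.999), with 95% intervals of -0.90 to 1.28 and -0.91 to 1.26. These intervals treat the arrays as independent samples and leave out the resemblance between arrays described above.

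The order of the Cdkn1a arrays followed the resemblance between arrays described above. In every group at 300 replicate 1 was lowest and in every group at 640 replicate 3 was lowest, and replicate 2 was highest in all 4 groups, on the centred and the deposited scale. All 4 lowest arrays being these was shared by 7.31% of all genes on the centred scale (1060 genes) and by 11.7% on the deposited scale (1704 genes). At 24 h these arrays also had the lowest array medians, while at 48 h the medians of all arrays were close. The part of array quality or culture in this spread was not tested. By Pearson correlation over the 12 centred arrays, the genes most like Cdkn1a, looked up after its values were seen, were Lcn2 (r = 0.979), the lipocalin secreted by stressed tubule cells, the ubiquitin-like Ubl5 (0.979) and the deubiquitinating enzyme Uchl1 (0.973). Their changes at 48 h were 0.26, 0.04 and -0.10, and none passed.

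**Figure D3:**
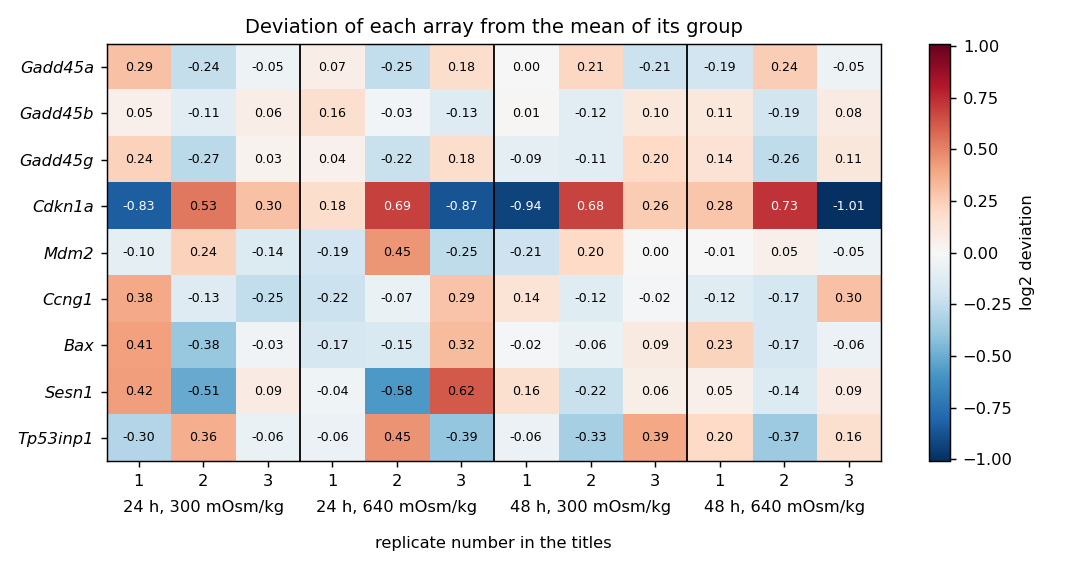
Deviation of each gene on each array from its group mean, in log2 units on the centred scale, for the 9 genes (columns: arrays by group and replicate number). Cdkn1a is lowest in replicate 1 at 300 and replicate 3 at 640 at both times, the arrays in which Ccng1 and Sesn1 are highest.

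Mdm2 and Ccng1 act in the feedback on p53; Ccng1 encodes cyclin G1, a p53 target that recruits phosphatase to Mdm2. Mdm2 had 10.93, 11.27 and 10.90 at 300 and 10.64, 11.28 and 10.58 at 640 after 24 h, and the groups overlapped through the high replicate 2 at 640. After 48 h it had 10.68, 11.09 and 10.89 at 300 and 10.58, 10.64 and 10.54 at 640, with no overlap. The change was 0.20 ± 0.20 at 24 h and 0.30 ± 0.20 at 48 h (limma adjusted p = 0.979), and 0.25 ± 0.14 in the mean of both times (limma adjusted p = 0.614).

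Ccng1 had 12.11, 11.60 and 11.48 at 300 and 11.48, 11.63 and 11.98 at 640 after 24 h, and 11.94, 11.68 and 11.78 at 300 and 11.45, 11.40 and 11.87 at 640 after 48 h. The groups overlapped at both times, and the changes were 0.03 ± 0.20 and 0.23 ± 0.20 (limma adjusted p = 1.000 and 0.999). Its highest arrays were the 4 in which Cdkn1a was lowest, a pattern it shared with Sesn1 and with 14.6% of all genes on the centred scale (2113 genes). As deposited, the pattern was held by 2.03% of all genes and by none of the 9, since the 2 low arrays at 24 h are not shifted up there. Whether Cdkn1a and Ccng1 ran opposite ways across the arrays at 24 h thus depended on the scale.

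Bax, the pore-forming protein of mitochondrial apoptosis, had 9.43, 8.64 and 8.98 at 300 and 8.79, 8.81 and 9.28 at 640 after 24 h, which overlap. After 48 h it had 9.42, 9.38 and 9.53 at 300 and 9.35, 8.96 and 9.07 at 640, with every array at 300 above every array at 640 by a small margin. The change was 0.05 ± 0.21 at 24 h and 0.32 ± 0.21 at 48 h (limma adjusted p = 0.962). The array has 2 probe sets for Bax, and the other gave 0.18 at 24 h and 0.23 at 48 h, in the same direction.

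The sestrin Sesn1, which restrains mTORC1 and oxidative stress, was the 1 gene whose estimates were below 0. It had 7.09, 6.16 and 6.75 at 300 and 7.12, 6.58 and 7.78 at 640 after 24 h, and 7.27, 6.88 and 7.16 at 300 and 7.42, 7.23 and 7.45 at 640 after 48 h. The groups overlapped at both times, and its pooled SD of 0.399 was the 89.6 percentile of all genes. The change was -0.50 ± 0.28 at 24 h and -0.26 ± 0.28 at 48 h (limma adjusted p = 1.000 and 0.999), and -0.38 ± 0.19 in the mean of both times (limma adjusted p = 0.525).

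Tp53inp1, which promotes p53 phosphorylation and autophagy, had 9.02, 9.68 and 9.25 at 300 and 9.20, 9.72 and 8.87 at 640 after 24 h. At 48 h the levels were 8.88, 8.61 and 9.33 at 300 and 8.93, 8.36 and 8.89 at 640. The groups overlapped at both times, with changes of 0.05 ± 0.26 and 0.21 ± 0.26 (limma adjusted p = 1.000 and 0.999).

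Counted by overlap alone, 1 of the 9 genes (Gadd45g) had all arrays at 300 above all arrays at 640 after 24 h, where 3.7% of all genes did. After 48 h 4 of the 9 did (Gadd45b, Gadd45g, Mdm2 and Bax), where 7.83% of all genes did. Gadd45g was the 1 gene of the 9 that did so at both times, as did 1.6% of all genes (232). Among values as deposited the same 4 genes stood apart after 48 h (7.13% of all genes), and Gadd45a joined Gadd45g after 24 h (1.59%). Of the 4 genes, only Gadd45g passed the limma test at 48 h.

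Over time at a fixed osmolality, 0 of the 9 genes were called and 0 had an unadjusted p under 0.05 in the limma fit, at 300 (0.255% of all genes called) or at 640 (0.138%). Of all genes, 7.62% at 300 and 6.58% at 640 had an unadjusted p under 0.05. Samples of the same number deviated together between the times at 300 (r = 0.46, 0.43 and 0.12). With the replicate number as a block over all 12 arrays 92 genes were called there, against 37 without it, and again 0 of the 9. That block also tied same-numbered samples across osmolalities, where the numbers did not pair them, so it is not a fit of the pairing at 300. At 300, 48 h minus 24 h, Gadd45g changed by 0.05 ± 0.19 (limma adjusted p = 0.968), and at 640 by -0.32 ± 0.19 (limma adjusted p = 0.875). The largest estimates were those of Tp53inp1, -0.38 ± 0.26 at 300 and -0.54 ± 0.26 at 640 (limma adjusted p = 0.784 and 0.776), and at 300 those of Sesn1, 0.44 ± 0.28, and Bax, 0.43 ± 0.21. Signs of these time changes depend on the scale: on the deposited scale, where 4 of the 6 arrays at 24 h have higher medians than any at 48 h, 8 of 9 estimates at 300 and 9 of 9 at 640 were below 0, and the median over all genes was -0.38 at 300 and -0.41 at 640, against 0.05 and 0.00 on the centred scale. With the values as deposited, 1 of the 9 genes at 300 and 3 at 640 had an unadjusted limma p under 0.05, and 0 passed. Of all 14506 genes, 3369 at 300 and 4077 at 640 had such a p, and 0 were called. Gadd45g changed by -0.74 at 640 on that scale (limma adjusted p = 0.143). The 8 fibroblast markers, 48 h minus 24 h, were above 0 for 8 of 8 at both osmolalities, with medians of 1.07 at 300 and 1.13 at 640 and 3 called higher at each. On the deposited scale 7 of the 8 were above 0 at each osmolality, with medians of 0.63 at 300 and 0.72 at 640, and 0 were called. The part of fibroblasts in the time changes was not tested.

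Of 14 measured genes of p53 and its regulators (18 listed), 0 were called in either direction at 24 h, at 48 h or in the mean of both times, with 0, 2 and 3 at an unadjusted p under 0.05; their median changes were -0.03, 0.02 and -0.02. Mdm4, the Mdm2 partner that masks p53, changed by 0.20 and 0.23 at 24 h and 48 h. Ppm1d, the phosphatase that switches p53 signalling off and is itself a p53 target, changed by -0.78 at 48 h (limma adjusted p = 0.162), with all arrays at 300 below all at 640, and by -0.59 in the mean of both times (limma adjusted p = 0.0762). In the mean it passed without replicate 2 at 300 and 24 h (limma adjusted p = 0.0221) or without replicate 1 at 300 and 48 h (0.0377). The locus of p19Arf, Cdkn2a, changed by 0.59 at 48 h (limma adjusted p = 0.201). In the same list the acetyltransferase gene Ep300 changed by -0.31 in the mean of both times (limma adjusted p = 0.286) and Tp73, a p53 homologue, by -0.29 at 24 h. After 48 h Mdm4 and Cdkn2a had all arrays at 300 above all at 640, as did 7.83% of all genes. All arrays at 300 lay below all at 640, as for Ppm1d, in 7.02% of all genes at 48 h. After 24 h Ep300 and Tp73 had all arrays at 300 below all at 640, as did 4.86% of all genes.

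Of 29 other p53 targets measured (40 listed), 0 were called at 24 h and 1 was called higher at 48 h and in the mean of both times. At an unadjusted p under 0.05 were 2, 7 and 8 of the 29 at 24 h, at 48 h and in the mean, and the median changes were 0.03, -0.01 and -0.01. The gene called was Fas, the death receptor. Its levels after 24 h were 6.97, 6.81 and 7.32 at 300 and 6.39, 6.32 and 6.28 at 640, and after 48 h 6.83, 7.37 and 7.15 at 300 and 6.31, 6.34 and 6.10 at 640. All 6 arrays at 300 lay above all 6 at 640. The change was 0.70 ± 0.18 at 24 h (limma adjusted p = 0.130), 0.87 ± 0.18 at 48 h (0.0197 by limma) and 0.78 ± 0.13 in the mean of both times (limma adjusted p = 0.00194). With values as deposited the limma adjusted p was 0.269 at 48 h, past the threshold no longer, and 0.0477 in the mean of both times. At 48 h the call was also lost without replicate 2 or 3 at 300 (limma adjusted p = 0.130 and 0.0935) or replicate 1 or 3 at 640 (0.0691 and 0.104). In the same list Btg1, the antiproliferative relative of Btg2, changed by -0.39 in the mean of both times (limma adjusted p = 0.0842).

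Of 19 other growth arrest genes measured (21 listed), 0 were called at 24 h and 1 was called lower at 48 h and in the mean of both times. At an unadjusted p under 0.05 were 2, 2 and 5 of the 19, and the median changes were -0.10, -0.14 and -0.09. It was Cdkn1c, which encodes p57, a cyclin-dependent kinase inhibitor of the same family as p21. After 48 h it had 7.26, 6.99 and 7.37 at 300 and 8.15, 7.97 and 8.06 at 640, and after 24 h 7.25, 7.56 and 7.69 at 300 and 8.22, 8.14 and 8.09 at 640. All 6 arrays at 300 lay below all 6 at 640. The change was -0.65 at 24 h (limma adjusted p = 0.123), -0.85 ± 0.17 at 48 h (0.0113 by limma) and -0.75 ± 0.12 in the mean of both times (limma adjusted p = 0.00131), but on the deposited scale the limma adjusted p was 0.388 at 48 h and 0.0933 in the mean, neither past the threshold. At 48 h the call was lost without replicate 2 at 300 (limma adjusted p = 0.0808) or replicate 1 at 640 (0.0696). Cdkn2c, an inhibitor of Cdk4 and Cdk6, changed by 0.59 at 24 h (limma adjusted p = 0.464).

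Among 20 measured cyclins, cyclin-dependent kinases and pocket proteins (23 listed), 1 was called higher at 24 h, 0 at 48 h, and 3 higher and 1 lower in the mean of both times. At an unadjusted p under 0.05 were 8, 4 and 8 of the 20, and the median changes were 0.18, 0.11 and 0.06. Ccna2, the cyclin of S phase and mitotic entry, had 8.01, 8.20 and 8.03 at 300 and 6.80, 6.97 and 6.70 at 640 after 24 h, and 7.10, 6.83 and 6.87 at 300 and 5.90, 6.41 and 6.55 at 640 after 48 h. Its levels at 300 lay above those at 640 at each time. Its change at 24 h was 1.25 ± 0.18, or 2.39-fold, with a limma adjusted p of 0.00483 (0.204 on the deposited scale, where it did not pass). At 24 h it was also past the threshold no longer when only the arrays at 24 h were fitted (limma adjusted p = 0.0502) or without the pair of arrays of lowest median (0.0583), the second of these chosen after seeing the data. In the mean of both times Ccna2 changed by 0.95 ± 0.13 (limma adjusted p = 0.000404, and 0.0315 on the deposited scale).

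In the mean of both times the mitotic cyclin gene Ccnb1 changed by 0.92 ± 0.16 (limma adjusted p = 0.00390; 1.06 with 0.0589 at 24 h, 0.78 with 0.148 at 48 h) and the cell cycle transcription factor gene Mybl2 by 0.65 ± 0.14 (limma adjusted p = 0.0170). Rbl2, a pocket protein of resting cells, changed by -0.61 ± 0.15 (limma adjusted p = 0.0279). On the deposited scale none of these 3 passed, with limma adjusted p of 0.0812, 0.271 and 0.455. Without single arrays the call of Mybl2 was lost 3 times (limma adjusted p up to 0.0623) and that of Rbl2 7 times (up to 0.0887). The p21 target Cdk2 changed by -0.08 and -0.32 at 24 h and 48 h, Ccnd1 by 0.01 and -0.03, and Rb1 by 0.00 and 0.14, and none passed.

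Of 13 measured genes of the kinase cascade that Gadd45 proteins act on (14 listed), 0 were called in either direction at any of these comparisons, with 0 at an unadjusted p under 0.05 in each; the median changes were 0.01, 0.03 and 0.02. Map3k4, the kinase that Gadd45 proteins bind and activate, changed by 0.08 at 24 h and 0.26 at 48 h (limma adjusted p = 0.877). Its arrays at 300 all lay above those at 640 after 48 h, as in 7.83% of all genes. Map3k1 changed by 0.18 and 0.25, and Mapk8, the gene of the kinase JNK1, by 0.25 and 0.18.

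**Figure D4:**
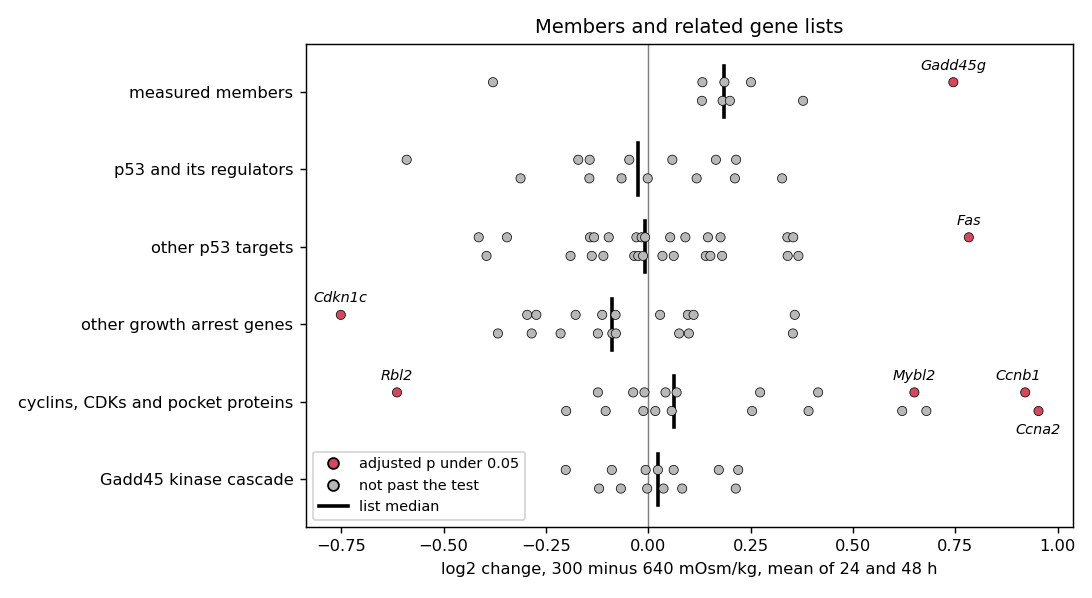
Change in log2 level, 300 minus 640, in the mean of both times, of each of the 9 genes and of each gene of 5 wider lists, with bars at the medians and red points past the test. The medians of the wider lists lie between -0.09 and 0.06 and that of the 9 genes at 0.19.

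Markers of other cell types moved with osmolality beside these results. The mean log2 level of 4 measured loop of Henle markers (5 listed) was 6.07 to 6.23 at 300 and 6.65 to 7.17 at 640 after 24 h, and 6.04 to 6.24 at 300 and 7.05 to 7.25 at 640 after 48 h. Of these, Slc12a1 and Aqp1 were called lower in the mean of both times, with changes of -1.05 and -2.23. By rank Umod lay at the 20.8 percentile of named genes, Slc12a1 at the 36.8, Cldn16 at the 37.2 and Aqp1 at the 87.1. The mean of the 7 macrophage markers was 6.01 to 6.03 at 300 and 6.13 to 6.21 at 640 after 24 h, and 6.22 to 6.49 at 300 and 6.52 to 6.78 at 640 after 48 h. Of these 1 was called lower, Csf1r. The ranks of the macrophage markers ran from the 20.3 percentile (Cd163) to the 83.3 (Cd14), with Cd68 at the 56.9 and the pan-leukocyte gene Ptprc at the 28.3. The mean of 5 endothelial markers (6 listed) was 5.95 to 6.22 at 300 and 6.23 to 6.62 at 640 after 24 h, and 5.97 to 6.36 at 300 and 6.39 to 6.89 at 640 after 48 h, with 1 called lower, Emcn. The 16 principal cell markers averaged 9.06 to 9.21 at 300 and 9.43 to 9.79 at 640 after 24 h, and 9.11 to 9.39 at 300 and 9.88 to 10.1 at 640 after 48 h, with 5 called lower in the mean of both times (Aqp2, Aqp3, Avpr2, Slc14a2 and Gata3). On the deposited scale, in the mean of both times, 0 of the macrophage and 0 of the endothelial markers were called. Of the principal cell markers 4 were called lower there, and of the loop of Henle markers again 2. The 8 fibroblast markers overlapped between osmolalities at both times, and so did the intercalated cell markers. Fibroblast marker ranks ran from the 1.79 percentile (Lum) to the 88.6 (Col1a1). In bulk RNA, fewer cells of a type and less RNA per cell cannot be told apart, and the part of cell composition in the changes of Gadd45g, Fas and Cdkn1c was not tested.

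Finally, the named genes most like Gadd45g over the 12 centred arrays were Tgm1 (r = 0.971), a transglutaminase of barrier epithelia, St3gal1 (0.946), a sialyltransferase, and Chchd6 (0.943), a subunit of the complex that shapes mitochondrial cristae. All arrays share the same groups, so these correlations hold the osmolality difference too. Tgm1 changed by 0.94 at 24 h and 1.31 at 48 h (limma adjusted p = 0.0353 and 0.00101). In the mean of both times St3gal1 changed by 0.55 (limma adjusted p = 0.0225) and Chchd6 by 0.53 (limma adjusted p = 0.0325). On the deposited scale the calls of Tgm1 at 24 h (limma adjusted p = 0.101), St3gal1 (0.179) and Chchd6 (0.0634) were lost. With 1 array left out at a time, the call of Tgm1 at 24 h held in 2 of 12 fits, that of Chchd6 in 2 and that of St3gal1 in 7, and Tgm1 at 24 h was also lost when only the arrays at 24 h were fitted (limma adjusted p = 0.291). The calls of Tgm1 at 48 h and in its mean held in all 12.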

How the data were processed

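Total RNA of 12 samples was measured on Affymetrix arrays. The values are log2 intensities that the authors deposited, made with RMA in Affymetrix Power Tools per the submitters' processing notes; versions, background settings and build were not given in the sources used here. Of 27596 probe sets, 15310 had 1 gene symbol in GEO's platform annotation, 323 several and 11963 were not listed there. Probe sets with 1 symbol gave 14506 genes, and the 527 genes with several probe sets kept the one of highest mean over the 12 arrays.

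The array medians differ, which values normalised together would not, so each array was centred on its median over the named genes and returned to the mean of the medians. Limma 3.58.1 in R 4.3.3 fitted 4 group means over all 12 arrays (8 residual degrees of freedom) with eBayes and Benjamini-Hochberg adjustment over all genes at 0.05. The number of arrays limits the precision; with 3 arrays against 3 an exact permutation test cannot go below p = 0.1. The fit was tested on simulated arrays with noise drawn independently for each gene and array. The deviations that the real arrays share were not simulated, so the simulation does not cover them. Same-numbered samples deviated together across genes between 24 h and 48 h at 300 (r = 0.46, 0.43 and 0.12, the last weakly). The labels give no pairing, so the replicate number entered only alternative fits, as a block shared by all 12 arrays. Promoters came from RefSeq (GRCr8), and motifs were matched on both strands.

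The genes, lists and the centring were chosen with earlier results of these data known. Named were the listed genes, from each wider list every gene called for osmolality (with none called, the 2 of smallest p) beside Mdm4, Map3k4, Cdk2, Ccnd1 and Rb1, and the 3 genes most correlated with a called member. Alternatives were the deposited scale, cyclic loess, leaving out the dimmest 30% of genes, a trended robust eBayes, fits of the compared arrays alone, the replicate number as a block, means of probe sets and each array left out.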

Additional observations from a re-analysis of the deposited data

How the results depend on the processing

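Apart from leaving out single arrays, Gadd45g stayed called at 48 h under 8 of the 9 processing choices tried. In the mean of both times it stayed called under all 8 that apply there. The exception at 48 h was the replicate block on values as deposited. The deposited table holds no detection calls, so signal over background was not assessed. The count of the 9 genes called at 48 h was 0 with the replicate block on values as deposited, an alternative chosen after seeing the data (Gadd45g 0.93, limma adjusted p = 0.0675), and ranged from 0 to 1 when each array was left out in turn. Across osmolalities the replicate numbers did not pair the samples: the correlation of same-numbered deviations was -0.13, 0.84 and -0.21 at 24 h and -0.23, 0.80 and -0.22 at 48 h. Between 48 h and 24 h it was 0.46, 0.43 and 0.12 at 300 and 0.033, 0.46 and 0.36 at 640. With the replicate block on centred arrays, no call among the 9 genes changed (Gadd45g 0.93, limma adjusted p = 0.00234 at 48 h), and counts over all genes were 159 at 24 h, 403 at 48 h, 735 in the mean, 6 for the difference, 92 for time at 300 and 35 at 640, against 95, 269, 497, 4, 37 and 20 without it.

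Counts over all genes moved by over 1.5 times elsewhere, apart from the mean of both times when single arrays were left out. With each array left out in turn they ranged from 26 to 78 at 24 h, 158 to 296 at 48 h, 360 to 516 in the mean, 0 to 4 for the difference, 7 to 50 for time at 300 and 6 to 19 at 640. On the deposited scale they were 13, 104, 185, 0, 0 and 0 in the same order, and with the block on the deposited scale 22, 118, 220, 2, 4 and 0. At 24 h the genes called were 40 higher and 55 lower at 300, and on the deposited scale 2 higher and 11 lower. Fitting the compared arrays alone gave 10 at 24 h, and cyclic loess gave 2 for the difference. Without the pair of arrays of lowest median at 24 h, also chosen after seeing the data, the counts were 17 at 24 h, 0 for the difference, 219 for time at 300 and 34 at 640. Some genes of the wider lists passed where they had not. Btg1 did so in the mean with cyclic loess (limma adjusted p = 0.0409) and with the replicate block (0.0401). Ccnb1 did so at 24 h with cyclic loess (0.0371), without dim genes (0.0427) and with the block (0.0432), and at 48 h with the compared arrays alone (0.0272), and Mybl2 at 24 h with the block (0.0345). Without replicate 1 at 300 or replicate 1 at 640, Ccnb1 also passed at 24 h (0.0425 and 0.0201). At 48 h St3gal1 passed with the block (0.0283), and Chchd6 with the block (0.0392), with the compared arrays alone (0.0343) and without the low pair (0.0469). The cause of these shifts was not tested.

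Signs turned for some uncalled changes. For time at 300 the deposited scale, with or without the block, gave Gadd45a -0.32, Gadd45b -0.32, Gadd45g -0.38, Cdkn1a -0.41, Ccng1 -0.36 and Bax -0.0045, and cyclic loess gave Gadd45a -0.011, Gadd45b -0.032, Cdkn1a -0.094 and Ccng1 -0.13. For time at 640 the deposited scale gave Gadd45a -0.42, Cdkn1a -0.38, Bax -0.26 and Sesn1 -0.21, cyclic loess Gadd45a -0.10 and Cdkn1a -0.051, and the mean of probe sets Gadd45a -0.00042. Without the pair of low arrays, 24 h gave Ccng1 -0.016, Cdk2 0.092 and Ccnd1 -0.056, the difference Cdkn1a 0.0036, time at 300 Cdkn1a -0.40, and time at 640 Cdkn1a -0.40 and Ccng1 0.019.

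When each array was left out in turn, the signs of other uncalled changes turned, with these ranges. The ranges at 24 h were Ccng1 -0.16 to 0.17, Bax -0.15 to 0.24, Cdkn1a -0.25 to 0.60, Tp53inp1 -0.14 to 0.28, Map3k4 -0.0097 to 0.21, Cdk2 -0.24 to 0.19, Ccnd1 -0.049 to 0.10, Cdkn2a -0.075 to 0.21 and Rb1 -0.096 to 0.054. The ranges at 48 h were Cdkn1a -0.33 to 0.64, Ccnd1 -0.064 to 0.038 and Tp73 -0.095 to 0.037. The ranges in the mean of both times were Cdkn1a -0.071 to 0.42 and Ccnd1 -0.039 to 0.035. The ranges for the difference were Gadd45a -0.0096 to 0.26, Cdkn1a -0.52 to 0.45, Sesn1 -0.076 to 0.52, Mdm2 -0.13 to 0.22 and Tp53inp1 -0.067 to 0.36. The ranges for time at 300 were Cdkn1a -0.40 to 0.49, Gadd45a -0.0089 to 0.26, Gadd45g -0.082 to 0.17 and Ccng1 -0.050 to 0.26. The ranges for time at 640 were Gadd45a -0.12 to 0.096, Sesn1 -0.085 to 0.52, Cdkn1a -0.40 to 0.54, Ccng1 -0.27 to 0.019 and Gadd45b -0.16 to 0.0026.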
